A study of Mus musculus with 19 samples.

Results

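Transcripts of 40 human genes for DNA damage checkpoints and DNA repair were followed in HCC827 xenograft tumours, out of 31276 genes in the count matrix. The genes were chosen by symbol from homologous recombination (12), the Fanconi pathway (9), end resection and structure-cutting enzymes (9), damage checkpoints (5), mismatch and oxidized-base repair (4) and polymerase theta end joining (1). All 40 were found and all 40 passed the filter on low counts, which 16704 genes passed. HCC827 is a line of human non-small cell lung cancer cells that carries an activated EGFR, and the tumours grew in NCG mice, an immunodeficient strain.

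The 19 RNA-seq libraries came from 4 groups: tumours given osimertinib, an inhibitor of mutated EGFR, together with 6-thio-dG (the combination, n = 5), osimertinib alone (n = 5), 6-thio-dG alone (n = 4) and DMSO (control, n = 5). 6-thio-dG is a modified deoxyguanosine, a substrate of telomerase that ends up in telomeric DNA. All groups share the cell line and the host strain, so every value comes from 1 line in a host with few lymphocytes. No source used here gives the doses or times. Libraries are named by group and number in order of deposition (combination 1 to 5 and so on). The labels do not say that each is a separate animal, so the p values measure only the spread between these samples.

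Homologous recombination copies an intact sister strand across a break: BRCA1 with BARD1 marks the site, PALB2 bridges it to BRCA2, and RAD54L and RAD54B are translocases that act later in the strand exchange. The Fanconi core complex attaches ubiquitin to the FANCD2 and FANCI clamp at crosslinked or stalled forks, and FANCL is its ubiquitin ligase. ATM and ATR are the kinases that sense breaks and stalled forks, and they signal through CHEK2 and CHEK1. Many of these genes are transcribed mostly in S and G2 phase, so in bulk tissue their level can vary with the share of cycling cells. In bulk samples, fewer cells of a type and less RNA per cell cannot be told apart.

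Depth, cell type markers and library quality were measured first. The symbols are human and the host is a mouse, so the marker sums do not measure how much host tissue was present. Total counts ran from 17731752 to 27450535 in the combination, 23068873 to 35397346 under osimertinib, 25322580 to 34664918 under 6-thio-dG and 22348698 to 30734539 in control, and the 40 genes took 0.101 to 0.161% of them. Lung epithelial tumour markers (9 genes, summed) were present in every library, at 17217 to 27927 CPM (counts scaled to a common library size by TMM), and 7.31 CPM was the lowest level of NKX2-1, the lung lineage factor. The summed level of 9 fibroblast markers was 522 ± 187 CPM (mean ± SD) in the combination, 577 ± 142 under osimertinib, 291 ± 58.6 under 6-thio-dG and 589 ± 203 in control, with DCN at 0 in 6 libraries. COL1A1 made up most of it (median 389 CPM over all libraries, beside 49.7 for COL3A1 and 46.1 for COL1A2). Of 8 markers tested, 2 were higher and 3 lower in the combination against control, beside 25.7% and 23.1% of all genes. The sum is therefore not a measure of fibroblast content. Macrophage and neutrophil markers summed to at most 21.6 CPM and lymphocyte markers to at most 1.19 CPM in any library, with the natural killer marker NKG7 at 0 in 17. The summed level of 7 skeletal muscle genes was 201 ± 198 CPM in the combination, 79.3 ± 26.2 under osimertinib, 76.7 ± 28.9 under 6-thio-dG and 372 ± 387 in control, with the highest value, 811 CPM, in control 3, and its part in the results was not tested. The share of counts on the mitochondrial genome was 18.6 ± 7.54% in the combination, 12.0 ± 3.42% under osimertinib, 6.45 ± 1.07% under 6-thio-dG and 8.15 ± 0.835% in control. Its range in the combination, 11.0 to 30.2%, overlapped neither control, at 7.04 to 9.29%, nor 6-thio-dG, at 5.27 to 7.86%. In those comparisons a fit with this share as a covariate therefore cannot separate it from treatment. The summed level of 271 olfactory receptor genes was 25.2 ± 11.2 CPM in the combination, 14.8 ± 3.57 under osimertinib, 13.4 ± 6.48 under 6-thio-dG and 4.99 ± 3.07 in control, and its part in the results was not tested. Combination 5 and 3 were the highest of all libraries in both measures and 6-thio-dG 3 the highest of its group in the second, and results are also given without these 3 libraries.

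A gene was said to rise or fall where edgeR's quasi-likelihood test gave an adjusted p under 0.05 over all 16704 genes, and fold changes are given as log2 ± SE. In the combination against control, 10 of the 40 genes fell and 2 rose, 30% of them, beside 48.7% of all genes (higher 25.7%, lower 23.1%). The genes that fell were the nucleases and resection factors EXO1, RBBP8 and NBN, the recombination genes XRCC3, RAD51C and BRCA1, the Fanconi core genes FANCE and FANCC, the checkpoint kinase CHEK1 and the mismatch repair gene MSH6. The 2 that rose were FANCL and EME1. The members' median log2 fold change was -0.00812, beside 0.02 over all tested genes, and 32 of the 40 moved by less than 0.5 on the log2 scale. In 5 members every combination library lay below every control library (background 12.3% of all genes) and in 1 every combination library lay above (background 14.5%). Without the 3 libraries that stood apart 6 members were called, beside 28.3% of all genes, and with the mitochondrial share as a covariate none, beside 3.24% of all genes (without the covariate 15 had an unadjusted p under 0.05, as had 55.9% of all genes). That share did not overlap between these groups, so the covariate fit cannot separate it from treatment. With upper-quartile scaling, which put the median log2 fold change of all genes at 0.13, 5 members were higher and 7 lower, and 8189 of all genes were called.

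Under osimertinib alone against control 1 of 40 genes rose, FANCL, and none fell, 2.5%, beside 4.16% of all genes (higher 2.7%, lower 1.46%). In no member did the groups separate, while 3.75% of all genes had every osimertinib library above every control library and 2.1% below. The median was 0.02 beside 0.02 over all genes, and all 40 genes had a 95% interval that lay within 1 log2 unit of 0. By limma voom 3 members were called, beside 9.15% of all genes, and by DESeq2 1, beside 7.19%. In edgeR 4 had an unadjusted p under 0.05, beside 19.6% of all genes. The count was 0 without osimertinib 1, osimertinib 2, osimertinib 4, osimertinib 5, combination 2, 6-thio-dG 1, 6-thio-dG 2, control 1, control 3, control 4 or control 5, and 2 without control 2. Over all genes the 695 calls became 217 to 910 in the fits without 1 library, and 703 without control 2.

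Under 6-thio-dG alone 4 of 40 genes fell and none rose, 10%, beside 13.9% of all genes (higher 9.27%, lower 4.63%). They were the recombination genes RAD51C and XRCC3, the Fanconi core gene FANCG and the oxidized-guanine glycosylase OGG1. A total of 28 had a negative fold change (70% of members, beside 49.3% of all genes), and the median was -0.13, beside 0.00582 over all genes. The members' median was -0.05 without 6-thio-dG 3, -0.06 without the 3 libraries together, -0.06 by limma voom and -0.05 with the proliferation covariate. Every 6-thio-dG library lay below every control library in 2 members, RAD51C and FANCF (background 5.29% of all genes), and above in none (background 7.21%). 6-thio-dG 3 had the lowest level of its group in 34 of the 40 genes. The count was 1 without 6-thio-dG 1, 6-thio-dG 3 or control 3, 2 without control 5 and 7 without 6-thio-dG 2, and 1 when only these groups were fitted. Over all genes the 2322 calls became 1390 without 6-thio-dG 1, 736 without 6-thio-dG 3 and 1232 without control 3. They were 1780 without control 5, 2807 without 6-thio-dG 2 and 790 with only these groups.

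Adding 6-thio-dG to osimertinib (combination against osimertinib) was followed by 4 lower genes of 40, 10%, beside 15.8% of all genes (higher 8.09%, lower 7.66%), and no higher one. Every combination library lay below every osimertinib library in 3 members, EXO1, MSH6 and BRCA1 (background 3.95% of all genes), and above in none (background 4.63%). The lower genes were MSH6, EXO1, RBBP8 and CHEK1, and all 4 were also lower against control, in a comparison that shares the combination libraries. The count was 0 without osimertinib 3, 1 without combination 3 or combination 5, 2 without combination 2, osimertinib 1 or osimertinib 2, 7 without osimertinib 4 and 10 without combination 1. Over all genes the 2632 calls became 537 without osimertinib 3, 571 without combination 3 and 492 without combination 5. They were 1700 without combination 2, 908 without osimertinib 1, 1140 without osimertinib 2, 2722 without osimertinib 4 and 4693 without combination 1. Without the 3 libraries together it was 0, when 0.0365% of all genes were called.

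Adding osimertinib to 6-thio-dG (combination against 6-thio-dG) gave 9 higher and 5 lower genes, 35% of the members, beside 44.2% of all genes (higher 21.2%, lower 22.9%). Higher were 4 Fanconi core genes, FANCL, FANCF, FANCG and FANCA, the nuclease subunit EME1, the translocase RAD54B, the kinase CHEK2 and the oxidized-base repair genes OGG1 and MUTYH. Lower were RBBP8, NBN, BRIP1, MSH6 and CHEK1. Groups did not overlap in 5 members that were higher (background 16.2% of all genes) and in 5 that were lower (background 16.8%). With upper-quartile scaling, which put the median log2 fold change of all genes at 0.21, 16 were higher and 3 lower, and 7496 of all genes were called. Without the 3 libraries 2 were higher and 2 lower, beside 20.1% of all genes. With the mitochondrial share as a covariate none of the 14 calls was made, beside 1.14% of all genes (without it 17 had an unadjusted p under 0.05, as had 52.2%). The share did not overlap between these groups, so this fit cannot separate it from treatment.

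**Figure D1:**
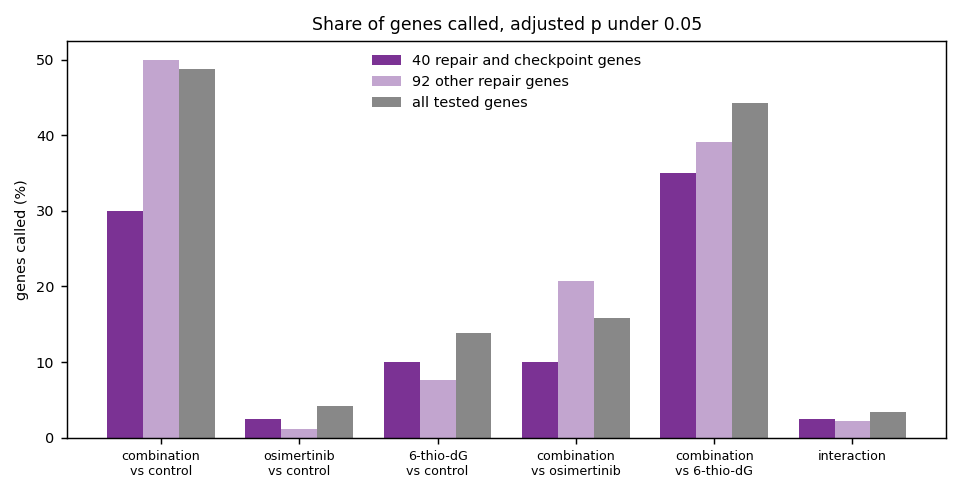
Percent of genes called at an adjusted p under 0.05 (vertical axis) in each comparison and for the interaction, for the 40 repair and checkpoint genes, 92 other repair genes and all 16704 tested genes. The bar of the 40 genes is at 30% in combination vs control, beside 48.7% for all genes, and is below the bar of all genes in each of the 6 sets.

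Among the genes of the BRCA1 and BRCA2 complexes, BRCA1, the ubiquitin ligase subunit, fell in the combination. BRCA1 had 40.5, 40.9, 30.9, 33.8 and 31.8 CPM in the combination and 57.1, 47.0, 68.6, 41.8 and 51.3 CPM under osimertinib. Under 6-thio-dG the BRCA1 values were 42.9, 52.7, 22.5 and 40.5 CPM, against 74.1, 48.8, 41.1, 35.4 and 51.3 CPM in control. All 5 combination libraries were below all 5 osimertinib libraries, while they overlapped control at control 4, which had 35.4 CPM. Control 1 was high. BRCA1 differed from control by a log2 fold change of -0.49 ± 0.20 (adjusted p = 0.0497), and against osimertinib -0.58 ± 0.20 (adjusted p = 0.0551), which missed the threshold. The call against control was lost without combination 2, combination 3, combination 4, combination 5, osimertinib 1, osimertinib 2, osimertinib 4, osimertinib 5, control 1, control 2 or control 5 (adjusted p up to 0.194). BRCA2, a core mediator of recombination, had 21.4, 25.7, 21.2, 19.0 and 16.7 CPM in the combination and 26.8, 20.5, 18.7, 15.7 and 21.7 CPM in control. These overlapped throughout, with a log2 fold change of 0.00853 ± 0.17 (adjusted p = 0.972) and a 95% interval -0.33 to 0.35. BARD1, the partner of BRCA1, had 0.13 ± 0.16 (adjusted p = 0.5) and PALB2, the bridge to BRCA2, -0.36 ± 0.15 (adjusted p = 0.051) in the same comparison, and neither was called.

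BRIP1 had 12.5, 15.5, 12.4, 12.8 and 10.2 CPM in the combination and 21.4, 17.9, 20.9, 11.5 and 15.8 CPM under osimertinib. Under 6-thio-dG the BRIP1 values were 18.9, 24.3, 17.4 and 18.1 CPM, against 21.3, 15.3, 11.8, 12.0 and 16.3 CPM in control. BRIP1, a helicase that binds BRCA1, was high under 6-thio-dG, where every library lay above every combination library. It fell in the combination against 6-thio-dG, with a log2 fold change of -0.63 ± 0.19 (adjusted p = 0.0119), and had 0.36 ± 0.19 (adjusted p = 0.211) in 6-thio-dG against control. Without the 3 libraries that stood apart its fold change against 6-thio-dG was -0.58 ± 0.23 (adjusted p = 0.081).

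The genes RAD51C, RAD51D, XRCC2 and XRCC3, whose proteins form small complexes in recombination, included 2 that fell. RAD51C had 17.0, 12.2, 12.5, 14.4 and 10.5 CPM in the combination and 18.4, 15.4, 17.8, 16.0 and 17.2 CPM under osimertinib. Under 6-thio-dG the RAD51C values were 11.7, 11.0, 7.04 and 11.3 CPM, against 23.0, 15.1, 21.7, 13.1 and 18.6 CPM in control. All 4 values of RAD51C under 6-thio-dG lay below all 5 in control, and 6-thio-dG 3 was the lowest. Under 6-thio-dG alone RAD51C fell, with a log2 fold change of -0.83 ± 0.18 (adjusted p = 0.00618), and it remained called in that comparison in each of the 19 fits without 1 library (adjusted p up to 0.0327). It fell also in the combination against control, with a log2 fold change of -0.45 ± 0.17 (adjusted p = 0.0304). That second call was lost without combination 2, combination 3, combination 5, control 1 or control 3 (adjusted p up to 0.0935).

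XRCC3 had 17.9, 21.5, 11.9, 17.5 and 14.0 CPM in the combination and 23.6, 19.1, 22.8, 21.3 and 20.4 CPM under osimertinib. Under 6-thio-dG the XRCC3 values were 19.4, 21.9, 9.78 and 19.6 CPM, against 27.3, 21.0, 35.9, 23.3 and 35.4 CPM in control. XRCC3 was low in both groups given 6-thio-dG, and each overlapped control at control 2. Osimertinib alone, at 19.1 to 23.6 CPM, overlapped both of these groups and control. It had -0.41 ± 0.20 (adjusted p = 0.248) against control. The combination had -0.37 ± 0.20 (adjusted p = 0.183) against osimertinib, and neither was called. XRCC3, the partner of RAD51C, fell in the combination against control, with a log2 fold change of -0.79 ± 0.20 (adjusted p = 0.00332), and under 6-thio-dG alone, with a log2 fold change of -0.69 ± 0.21 (adjusted p = 0.0335). The call under 6-thio-dG alone was lost without 6-thio-dG 1, 6-thio-dG 3, control 3 or control 5 (adjusted p up to 0.136). XRCC2, another gene of this group, did not pass the test, with 0.36 ± 0.17 (adjusted p = 0.0815) in the combination and 0.40 ± 0.17 (adjusted p = 0.193) under osimertinib, both against control. RAD51D had -0.14 ± 0.12 (adjusted p = 0.367) and RAD51AP1, an accessory factor of recombination, -0.02 ± 0.16 (adjusted p = 0.912) in the combination against control.

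RAD54B, a translocase with 27 to 115 counts per library, had 3.36, 3.15, 4.06, 3.03 and 3.21 CPM in the combination, against 2.19, 2.13, 1.20 and 2.83 CPM under 6-thio-dG. The groups did not overlap, and RAD54B was higher in the combination, with a log2 fold change of 0.68 ± 0.25 (adjusted p = 0.0302). This call was lost without combination 3, 6-thio-dG 1, 6-thio-dG 2 or 6-thio-dG 3 (adjusted p up to 0.11). Its relative RAD54L had -0.31 ± 0.14 (adjusted p = 0.0742) in the combination and -0.42 ± 0.15 (adjusted p = 0.0601) under 6-thio-dG, both against control, and was not called.

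**Figure D2:**
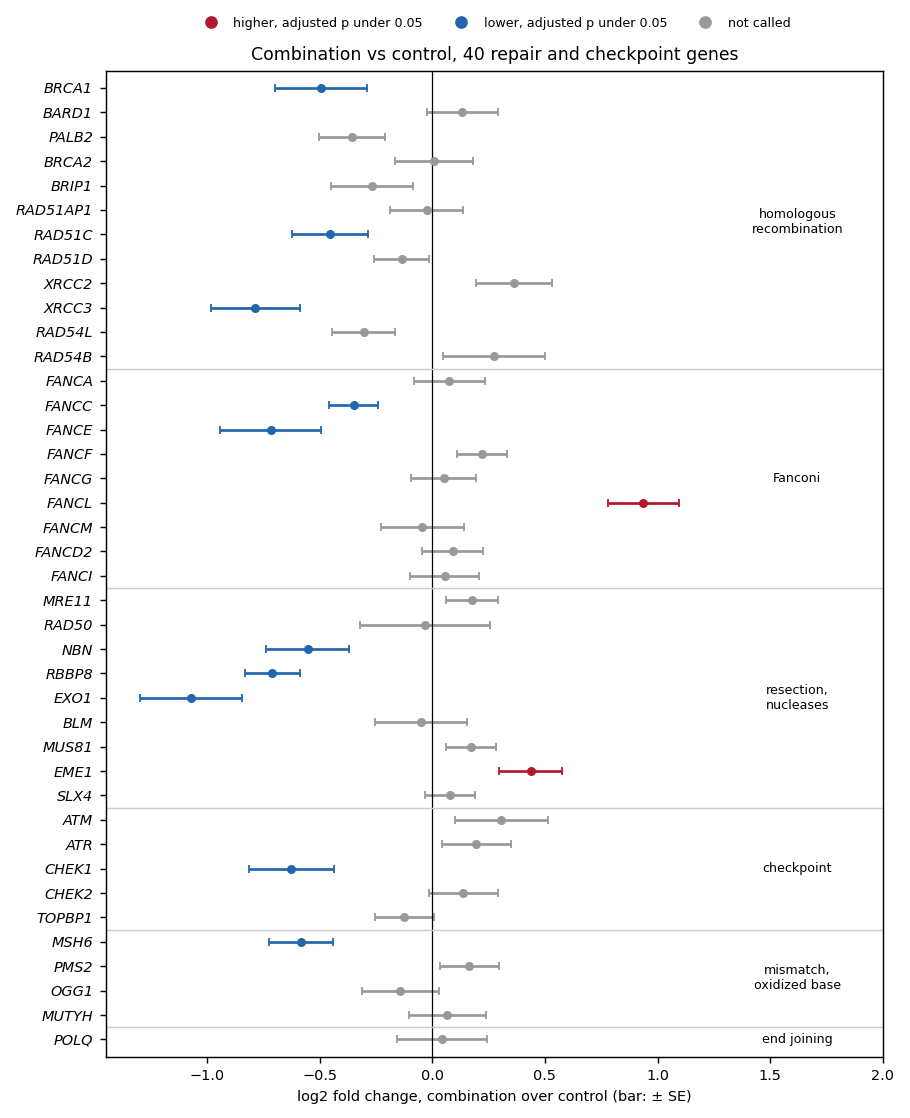
Log2 fold change of each of the 40 genes in the combination over control (horizontal axis), with bars of ± SE, grouped by role, and coloured by the call at an adjusted p under 0.05. FANCL at 0.94 and EXO1 at -1.07 are the ends of the range, and 28 genes are not called.

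In the Fanconi core complex, the ubiquitin ligase FANCL stood at the upper end of all 40 genes. FANCL had 46.2, 55.9, 67.2, 46.6 and 69.9 CPM in the combination and 44.1, 40.7, 35.5, 49.2 and 52.6 CPM under osimertinib. Under 6-thio-dG the FANCL values were 34.5, 32.9, 23.7 and 37.4 CPM, against 29.9, 38.9, 26.5, 26.1 and 27.7 CPM in control. Every combination library lay above every control and every 6-thio-dG library, and osimertinib overlapped both the combination and control. FANCL rose in the combination against control, with a log2 fold change of 0.94 ± 0.16 (adjusted p = 0.000183), or 1.91 times the control level. It rose against 6-thio-dG, with a log2 fold change of 0.83 ± 0.17 (adjusted p = 0.00076), and under osimertinib alone against control, with a log2 fold change of 0.57 ± 0.16 (adjusted p = 0.0421). Both calls of the combination were made in each of the 19 fits without 1 library (adjusted p up to 0.00085 against control and 0.00394 against 6-thio-dG). The call under osimertinib alone was lost without combination 2, osimertinib 1, osimertinib 2, osimertinib 4, osimertinib 5, 6-thio-dG 1, 6-thio-dG 2, control 1, control 3, control 4 or control 5 (adjusted p up to 0.118). With the mitochondrial share as a covariate FANCL had 0.51 ± 0.18 (adjusted p = 0.109) in the combination against control. FANCL was highest in combination 5 and combination 3, the libraries with the largest mitochondrial shares. Among the combination libraries, EXO1, RBBP8, NBN, MSH6 and CHEK1 were lowest in the same libraries. Their calls against control were also lost with the share as a covariate. This fit cannot separate the share from treatment, and the part of the share in these results was not tested.

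Among the other core subunits FANCE and FANCC fell in the combination. FANCE had 3.39, 2.63, 2.50, 2.36 and 1.82 CPM in the combination and 3.78, 3.23, 4.65, 3.52 and 3.28 CPM under osimertinib. Under 6-thio-dG the FANCE values were 4.10, 3.21, 3.81 and 1.76 CPM, against 5.35, 3.39, 4.03, 3.71 and 4.57 CPM in control. FANCE, which links the core to FANCD2 and has 29 to 160 counts per library, was lowest in combination 5 among the combination libraries and touched control 2 at its highest value. It fell in the combination against control, with a log2 fold change of -0.72 ± 0.22 (adjusted p = 0.0127), and without the 3 libraries together had -0.60 ± 0.25 (adjusted p = 0.0853). FANCC had 13.5, 11.9, 11.3, 12.1 and 14.0 CPM in the combination and 16.2, 14.9, 16.9, 17.4 and 14.3 CPM in control, with no overlap, and fell with a log2 fold change of -0.35 ± 0.11 (adjusted p = 0.0125). FANCC has the same counts as the symbol LOC105376156 in all libraries, so its reads may be shared, and with upper-quartile scaling it had -0.24 ± 0.11 (adjusted p = 0.0887).

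FANCG had 16.1, 21.0, 17.1, 17.4 and 21.9 CPM in the combination and 16.8, 17.2, 15.4, 13.4 and 18.6 CPM under osimertinib. Under 6-thio-dG the FANCG values were 11.5, 16.7, 10.6 and 13.1 CPM, against 14.3, 17.7, 18.2, 17.5 and 22.4 CPM in control. FANCG was low under 6-thio-dG alone and overlapped the other groups at 6-thio-dG 2. It fell under 6-thio-dG against control, with a log2 fold change of -0.47 ± 0.15 (adjusted p = 0.0465), and was higher in the combination than under 6-thio-dG, with a log2 fold change of 0.52 ± 0.15 (adjusted p = 0.0103). The first of these calls was lost without combination 2, combination 3, combination 4, osimertinib 1, osimertinib 2, osimertinib 3, 6-thio-dG 1, 6-thio-dG 3, 6-thio-dG 4, control 2, control 3, control 4 or control 5 (adjusted p up to 0.173). FANCF had 19.6, 20.9, 24.0, 17.9 and 18.9 CPM in the combination and 18.2, 16.8, 18.2, 19.2 and 18.8 CPM under osimertinib. Under 6-thio-dG the FANCF values were 15.7, 15.8, 11.4 and 15.7 CPM, against 18.8, 17.0, 16.7, 16.1 and 18.3 CPM in control. FANCF, an adaptor of the core, was low in 6-thio-dG 3, and each combination library lay above each 6-thio-dG library. It rose in the combination against 6-thio-dG, with a log2 fold change of 0.47 ± 0.12 (adjusted p = 0.00427). FANCA did too, with a log2 fold change of 0.53 ± 0.17 (adjusted p = 0.0141). This call was lost without 6-thio-dG 3 (adjusted p up to 0.0614). Without the 3 libraries together FANCG had 0.40 ± 0.18 (adjusted p = 0.122), FANCF 0.31 ± 0.11 (adjusted p = 0.061) and FANCA 0.40 ± 0.19 (adjusted p = 0.147) in that comparison.

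The clamp that the core modifies did not pass the test in any comparison. FANCD2 had 43.8, 53.2, 44.7, 38.5 and 59.2 CPM in the combination and 52.1, 39.5, 45.2, 42.7 and 45.2 CPM in control, which overlapped, with a log2 fold change of 0.09 ± 0.14 (adjusted p = 0.602) and a 95% interval -0.18 to 0.36. Its partner FANCI had 0.05 ± 0.15 (adjusted p = 0.788) and the translocase FANCM -0.04 ± 0.18 (adjusted p = 0.86). FANCD2 has pseudogene copies, and the authors' counting could split reads between them.

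**Figure D3:**
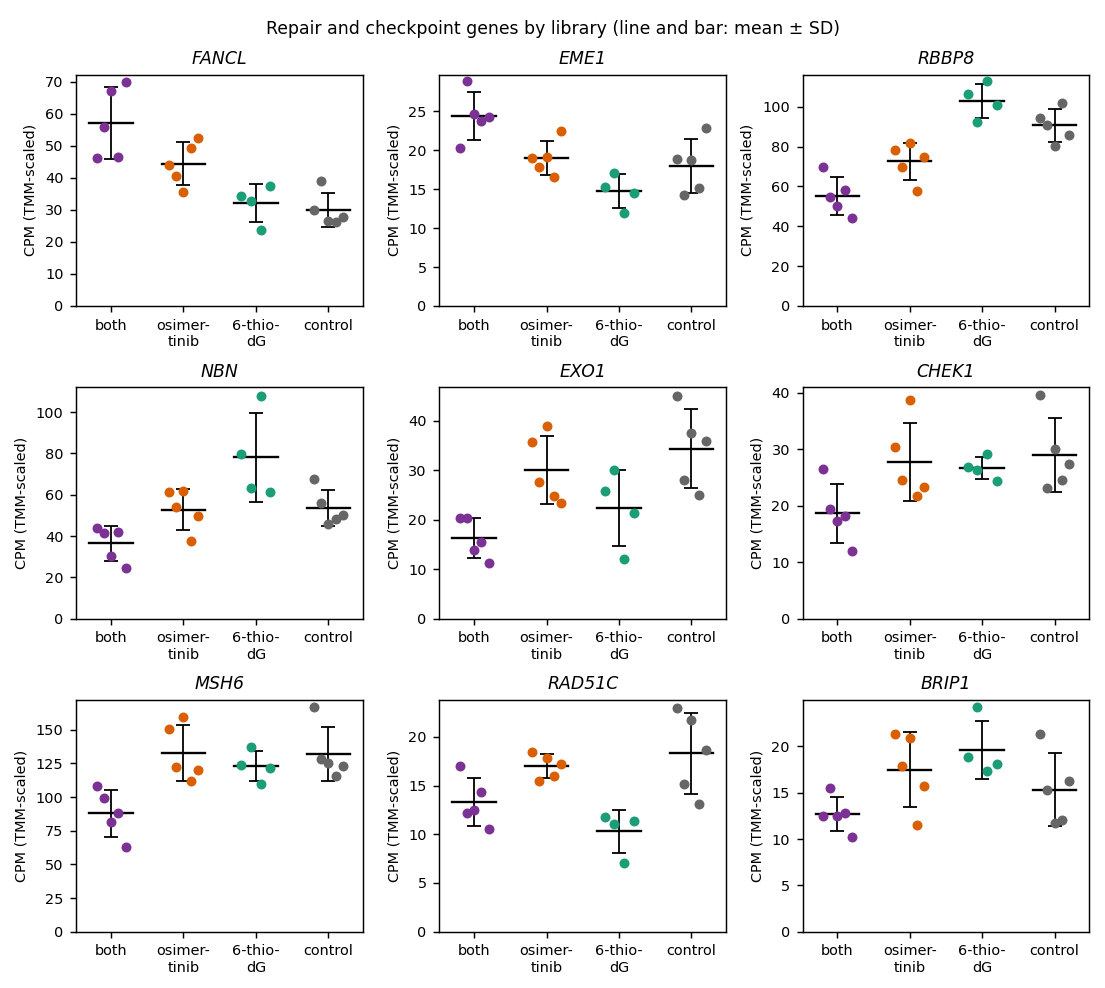
Level of 9 genes in CPM, scaled by TMM (vertical axis, from 0), in every library of the combination (both), osimertinib, 6-thio-dG and control, with the mean as a line and the SD as a bar. FANCL in the combination, at 46.2 to 69.9 CPM, lies above control, at 26.1 to 38.9 CPM, while RBBP8 in the combination, at 44.1 to 69.6 CPM, lies below control, at 80.4 to 102 CPM.

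Resection, the trimming of break ends that commits a break to recombination, held the steepest fall among the 40 genes in the combination against control. EXO1 had 20.3, 20.5, 13.9, 15.5 and 11.3 CPM in the combination and 35.8, 27.6, 38.9, 24.9 and 23.5 CPM under osimertinib. Under 6-thio-dG the EXO1 values were 25.9, 30.1, 12.1 and 21.4 CPM, against 45.1, 28.0, 37.6, 25.0 and 36.0 CPM in control. EXO1, the long-range exonuclease, was below every control and every osimertinib library in all 5 combination libraries, and 6-thio-dG 3 was as low as they were. It fell to 0.476 of the control level in the combination, with a log2 fold change of -1.07 ± 0.23 (adjusted p = 0.000949), and against osimertinib with a log2 fold change of -0.88 ± 0.22 (adjusted p = 0.0183). The call against osimertinib was lost without combination 3, combination 5 or osimertinib 3 (adjusted p up to 0.0627). Under 6-thio-dG alone it had -0.62 ± 0.24 (adjusted p = 0.0849), which missed the threshold.

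RBBP8 had 69.6, 54.6, 50.4, 58.0 and 44.1 CPM in the combination and 78.3, 69.9, 81.8, 57.9 and 74.7 CPM under osimertinib. Under 6-thio-dG the RBBP8 values were 106, 92.2, 113 and 101 CPM, against 94.5, 90.9, 80.4, 102 and 85.6 CPM in control. RBBP8, the CtIP protein that starts resection, was lowest in the combination, where all values lay below all values of control and of 6-thio-dG. It fell in the combination against control, with a log2 fold change of -0.71 ± 0.12 (adjusted p = 0.000232), against 6-thio-dG, with a log2 fold change of -0.89 ± 0.13 (adjusted p = 6.75e-05), and against osimertinib, with a log2 fold change of -0.39 ± 0.12 (adjusted p = 0.0377). The calls against control and against 6-thio-dG were made in each of the 19 fits without 1 library (adjusted p up to 0.00111 and 0.000332). The call against osimertinib was lost without combination 2, combination 3, combination 5, osimertinib 1, osimertinib 2, osimertinib 3 or osimertinib 5 (adjusted p up to 0.117).

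NBN had 44.0, 41.4, 30.4, 42.0 and 24.5 CPM in the combination and 61.5, 53.9, 61.7, 37.5 and 49.7 CPM under osimertinib. Under 6-thio-dG the NBN values were 79.8, 63.5, 108 and 61.1 CPM, against 67.6, 56.1, 45.8, 48.2 and 50.2 CPM in control. NBN, the subunit that brings the MRE11 and RAD50 nuclease to ATM, was high under 6-thio-dG and low in the combination, whose libraries lay below every 6-thio-dG and every control library. It fell in the combination against 6-thio-dG, with a log2 fold change of -1.10 ± 0.19 (adjusted p = 0.000276), and against control, with a log2 fold change of -0.55 ± 0.18 (adjusted p = 0.018). The call against control was lost without combination 3, combination 5 or control 1 (adjusted p up to 0.0563). With the mitochondrial share as a covariate the difference from control turned positive, 0.00516 ± 0.19 (adjusted p = 0.992), in a fit that cannot separate that share from treatment. Under 6-thio-dG alone NBN had 0.54 ± 0.19 (adjusted p = 0.0638), and 6-thio-dG 3 held its highest value. MRE11 itself had 0.18 ± 0.12 (adjusted p = 0.217) in the combination against control, with a 95% interval -0.05 to 0.40. RAD50, with only 21 to 97 counts per library, had -0.03 ± 0.29 (adjusted p = 0.936) with a 95% interval -0.59 to 0.53. Changes within that interval remain possible. The SD of RAD50 was 43.5% of its mean in control, 35.1% under osimertinib, 7.18% under 6-thio-dG and 17.4% in the combination.

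EME1 had 20.2, 28.9, 24.7, 23.7 and 24.3 CPM in the combination and 19.0, 17.8, 19.2, 16.5 and 22.5 CPM under osimertinib. Under 6-thio-dG the EME1 values were 15.3, 17.1, 11.9 and 14.5 CPM, against 18.9, 14.2, 18.8, 15.1 and 22.9 CPM in control. EME1, which forms a nuclease with MUS81 that cuts branched DNA, was high in the combination, where each library lay above each 6-thio-dG library. It rose in the combination against 6-thio-dG, with a log2 fold change of 0.73 ± 0.15 (adjusted p = 0.000884), and against control, with a log2 fold change of 0.44 ± 0.14 (adjusted p = 0.0141). The call against 6-thio-dG was made in each of the 19 fits without 1 library (adjusted p up to 0.0057). Against control it had 0.42 ± 0.16 (adjusted p = 0.0548) without the 3 libraries together. In the combination MUS81 had 0.17 ± 0.11 (adjusted p = 0.207) against control, the scaffold SLX4 0.08 ± 0.11 (adjusted p = 0.575) and the helicase BLM -0.05 ± 0.20 (adjusted p = 0.855), and none of them was called.

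Of the 5 checkpoint genes CHEK1, the kinase that acts after ATR, fell in the combination. CHEK1 had 26.6, 19.4, 17.3, 18.2 and 12.1 CPM in the combination and 30.5, 24.6, 38.7, 21.7 and 23.3 CPM under osimertinib. Under 6-thio-dG the CHEK1 values were 26.8, 26.3, 29.1 and 24.5 CPM, against 39.6, 23.2, 30.1, 24.5 and 27.4 CPM in control. Combination 1 overlapped control, and the other 4 combination libraries lay below all of it. CHEK1 differed by a log2 fold change of -0.63 ± 0.19 (adjusted p = 0.0102) against control, -0.57 ± 0.19 (adjusted p = 0.0459) against osimertinib and -0.51 ± 0.20 (adjusted p = 0.0431) against 6-thio-dG. The call against osimertinib was lost without combination 2, combination 3, combination 4, combination 5, osimertinib 1, osimertinib 2, osimertinib 3, 6-thio-dG 1, 6-thio-dG 2, 6-thio-dG 4, control 3, control 4 or control 5 (adjusted p up to 0.155). The call against 6-thio-dG was lost without combination 2, combination 3, combination 4, combination 5, 6-thio-dG 1, 6-thio-dG 2, 6-thio-dG 3 or 6-thio-dG 4 (adjusted p up to 0.105). With the mitochondrial share as a covariate the difference from 6-thio-dG turned positive, 0.16 ± 0.21 (adjusted p = 0.741), in a fit that cannot separate that share from treatment. Without the 3 libraries together it had -0.44 ± 0.20 (adjusted p = 0.0965) against control.

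CHEK2 had 8.83, 12.4, 12.2, 11.7 and 15.8 CPM in the combination and 12.1, 10.2, 10.0, 11.9 and 15.2 CPM under osimertinib. Under 6-thio-dG the CHEK2 values were 10.1, 8.90, 7.75 and 7.45 CPM, against 11.5, 11.9, 10.8, 11.8 and 9.41 CPM in control. CHEK2, the kinase that acts after ATM, had -0.37 ± 0.16 (adjusted p = 0.133) under 6-thio-dG against control, with overlap, and combination 1 overlapped 6-thio-dG 1 and 6-thio-dG 2. CHEK2 was higher in the combination than under 6-thio-dG, with a log2 fold change of 0.51 ± 0.16 (adjusted p = 0.017), and had 0.14 ± 0.15 (adjusted p = 0.472) against control. The call was lost without combination 5, 6-thio-dG 3 or 6-thio-dG 4 (adjusted p up to 0.0612), and CHEK2 has pseudogene copies that could share its reads. ATM had 58.4, 51.8, 51.5, 47.4 and 61.1 CPM in the combination and 48.6, 75.0, 30.0, 34.7 and 30.2 CPM in control, where control 2 was high and 3 libraries were low. The difference was 0.31 ± 0.21 (adjusted p = 0.226), with a 95% interval -0.10 to 0.71. ATR, at 83.6, 85.5, 75.5, 67.7 and 83.3 CPM in the combination and 86.8, 89.0, 57.1, 54.4 and 58.2 CPM in control, overlapped as well, with a log2 fold change of 0.20 ± 0.15 (adjusted p = 0.291). TOPBP1, which activates ATR, had -0.12 ± 0.13 (adjusted p = 0.451) in that comparison.

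Mismatch repair was read through MSH6, which recognises mispaired bases, and PMS2, which cuts the new strand. MSH6 had 109, 99.2, 81.2, 88.0 and 62.6 CPM in the combination and 151, 122, 159, 112 and 120.1 CPM under osimertinib. Under 6-thio-dG the MSH6 values were 123, 137, 109.9 and 121 CPM, against 167, 128, 125, 116 and 123 CPM in control. MSH6 was lower in each combination library than in each library of every other group. It fell against control, with a log2 fold change of -0.58 ± 0.14 (adjusted p = 0.00277), against osimertinib, with a log2 fold change of -0.60 ± 0.14 (adjusted p = 0.0151), and against 6-thio-dG, with a log2 fold change of -0.49 ± 0.15 (adjusted p = 0.0134). The call against osimertinib was lost without osimertinib 3 (adjusted p up to 0.0534). With upper-quartile scaling the difference from 6-thio-dG was -0.32 ± 0.14 (adjusted p = 0.0624), and without the 3 libraries together -0.37 ± 0.15 (adjusted p = 0.0868). PMS2 had 0.16 ± 0.13 (adjusted p = 0.303) in the combination against control, and it has near-identical pseudogene copies, so its counts are uncertain.

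OGG1 had 9.85, 9.36, 9.58, 8.11 and 9.74 CPM in the combination and 9.56, 8.56, 9.74, 9.52 and 9.55 CPM under osimertinib. Under 6-thio-dG the OGG1 values were 5.52, 9.55, 3.90 and 7.19 CPM, against 10.6, 9.62, 11.6, 10.8 and 8.88 CPM in control. OGG1, the glycosylase that removes oxidized guanine, was low in 3 of the 4 libraries under 6-thio-dG alone, and 6-thio-dG 2 lay within control. It fell under 6-thio-dG, with a log2 fold change of -0.65 ± 0.18 (adjusted p = 0.0238), and was higher in the combination than under 6-thio-dG, with a log2 fold change of 0.51 ± 0.18 (adjusted p = 0.0297), while the combination against control gave -0.14 ± 0.17 (adjusted p = 0.505). The fall under 6-thio-dG was lost without 6-thio-dG 1, 6-thio-dG 3 or control 3 (adjusted p up to 0.0938). The difference between the combination and 6-thio-dG was lost without combination 5, 6-thio-dG 1 or 6-thio-dG 3 (adjusted p up to 0.126). MUTYH, which removes the adenine mispaired with oxidized guanine, was also higher in the combination than under 6-thio-dG, with a log2 fold change of 0.55 ± 0.18 (adjusted p = 0.0201), and had -0.48 ± 0.18 (adjusted p = 0.0804) under 6-thio-dG alone. This call was lost without 6-thio-dG 1 or 6-thio-dG 3 (adjusted p up to 0.071). POLQ, the polymerase of theta-mediated end joining, had 0.04 ± 0.20 (adjusted p = 0.874), 0.25 ± 0.20 (adjusted p = 0.516) and -0.19 ± 0.21 (adjusted p = 0.574) in the combination, osimertinib and 6-thio-dG against control, and was not called in any comparison.

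The interaction asks whether 6-thio-dG did the same with osimertinib present as without it. It is the fold change of the combination over osimertinib minus that of 6-thio-dG over control, comparisons that share no library. NBN alone of the 40 was called, 2.5%, beside 3.45% of all genes (higher 1.24%, lower 2.21%), with an interaction of -1.08 ± 0.27 (adjusted p = 0.0396): the fold change was -0.53 ± 0.18 with osimertinib and 0.54 ± 0.19 without it. This call was lost without combination 2, combination 3, combination 4, combination 5, osimertinib 1, osimertinib 2, osimertinib 3, 6-thio-dG 1, 6-thio-dG 3, control 3, control 4 or control 5 (adjusted p up to 0.0958). Without the 3 libraries together no member was called for the interaction, and no gene of all those tested. At an unadjusted p under 0.05 there were 13 members, 5 negative (NBN, RBBP8, BRIP1, MSH6 and RAD50) and 8 positive (EME1, FANCG, FANCD2, OGG1, SLX4, FANCA, FANCF and MUTYH). Of all tested genes 26.3% had an unadjusted p under 0.05. In 22 of all 40 members the fold changes of adding 6-thio-dG with and without osimertinib had opposite signs. The share of all tested genes with opposite signs was not computed, so this count is not read as a result about the members. The widest of the positive ones was FANCG, 0.67 ± 0.21 (adjusted p = 0.0675), and next to NBN on the negative side was RAD50, -0.86 ± 0.41 (adjusted p = 0.188), and neither passed the adjusted threshold. DESeq2 called 5 members for the interaction, beside 11.2% of all genes, and limma voom 8, beside 16.8%. The edgeR count was 4 without combination 1 or 6-thio-dG 2, 3 without osimertinib 4, and 2 without osimertinib 5, control 1 or control 2. Over all genes the 576 interaction calls became 2157 without combination 1, 1072 without 6-thio-dG 2 and 926 without osimertinib 4. They were 1100 without osimertinib 5, 383 without control 1 and 930 without control 2.

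**Figure D4:**
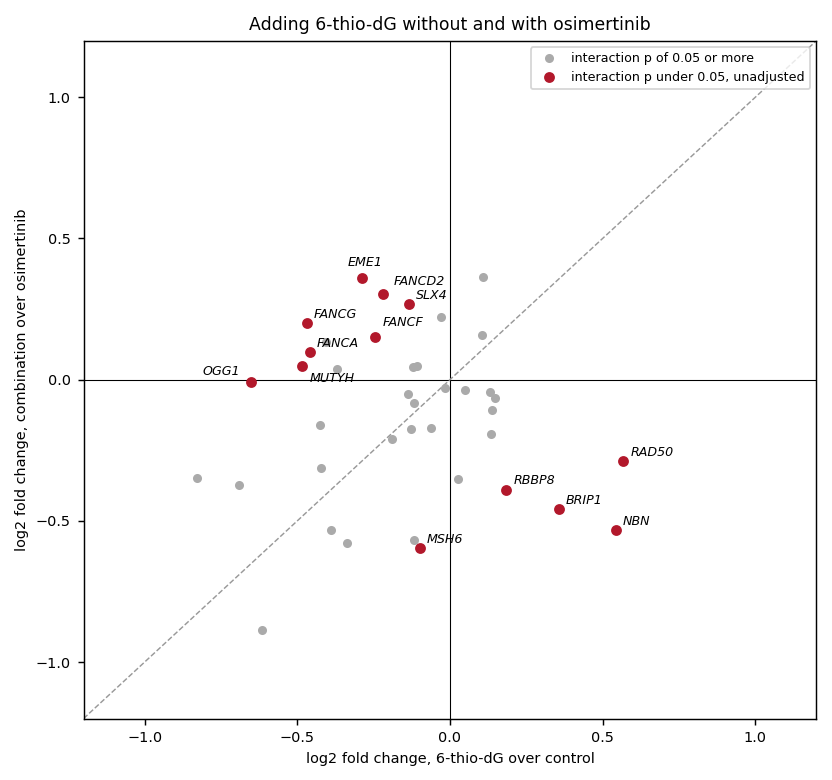
Log2 fold change of adding 6-thio-dG with osimertinib present (vertical axis, combination over osimertinib) against that without it (horizontal axis, 6-thio-dG over control), 1 point per gene for the 40 genes, with the 13 at an unadjusted interaction p under 0.05 in red and a dashed line of equal change. NBN is at the lower right, at 0.54 without and -0.53 with osimertinib.

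Of 15 proliferation genes 14 had a negative fold change in the combination against control, beside 49% of all genes. The 40 members had 20 positive and 20 negative ones. The mean log2 CPM of 15 proliferation genes was 5.92 ± 0.37 in the combination (SD, n = 5), 6.45 ± 0.24 under osimertinib (n = 5), 6.16 ± 0.28 under 6-thio-dG (n = 4) and 6.52 ± 0.29 in control (n = 5). In the combination against control 8 of the 15 fell and none rose, 53.3%, beside 48.7% of all genes (lower 23.1%), with a median of -0.51. MCM2, a subunit of the replicative helicase, had -1.43 ± 0.25 (adjusted p = 0.000267), and MKI67, a marker of cycling cells, -0.37 ± 0.21 (adjusted p = 0.148). The members' mean log2 CPM was 4.48 ± 0.10 in the combination and 4.56 ± 0.14 in control. When the proliferation level, itself an outcome of the treatments, was a covariate, 4 members were called in the combination against control, beside 15.2% of all genes. The level ran from 5.38 to 6.23 in the combination and from 6.13 to 6.79 in control, where only control 2 lay within the combination's range. This fit therefore separates the level poorly from treatment. FANCL had 0.69 ± 0.18 (adjusted p = 0.0183), EME1 0.68 ± 0.17 (adjusted p = 0.0108), XRCC2 0.86 ± 0.15 (adjusted p = 0.00109) and RBBP8 -0.59 ± 0.14 (adjusted p = 0.0112). EXO1 then had -0.37 ± 0.15 (adjusted p = 0.105), CHEK1 -0.18 ± 0.18 (adjusted p = 0.519), MSH6 -0.23 ± 0.13 (adjusted p = 0.203), XRCC3 -0.23 ± 0.17 (adjusted p = 0.375) and BRCA1 0.00666 ± 0.20 (adjusted p = 0.984). Against 6-thio-dG the combination then had 15 members called, 11 higher and 4 lower, beside 41.4% of all genes. Beyond these fits the part of proliferation in the results was not tested.

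**Figure D5:**
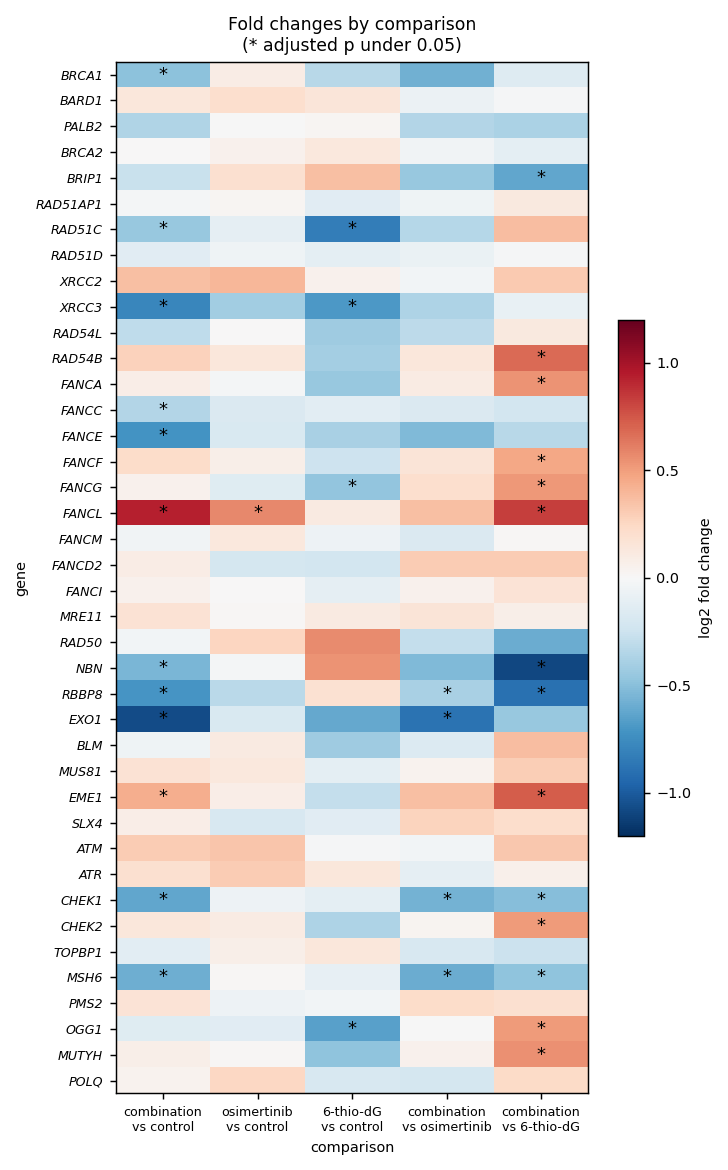
Log2 fold change (colour, blue lower and red higher) of the 40 genes (rows, by role) in the 5 pairwise comparisons (columns), with an asterisk where the adjusted p was under 0.05. FANCL is red in each column and called in 3, and the osimertinib column has 1 asterisk.

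Of 92 further repair genes, 13 rose and 33 fell in the combination against control, 50%, beside 48.7% of all genes (higher 25.7%, lower 23.1%), with a median of -0.17. Among 23 other recombination and Fanconi genes 2 rose and 6 fell: EME2, the other partner of MUS81, had 1.23 ± 0.19 (adjusted p = 0.000112), GEN1, a junction-cutting nuclease, 0.61 ± 0.13 (adjusted p = 0.00128) and the topoisomerase TOP3A -0.63 ± 0.12 (adjusted p = 0.000594). Among 23 other checkpoint genes 2 rose and 12 fell. RAD9A, a subunit of the checkpoint clamp, had 1.55 ± 0.22 (adjusted p = 5.24e-05), the ubiquitin ligase RNF8 -0.86 ± 0.14 (adjusted p = 0.000182) and RPA1, which coats single-stranded DNA, -0.94 ± 0.18 (adjusted p = 0.000445). In non-homologous end joining, which rejoins ends without a template, 3 of 10 rose and 3 fell, with the nuclease DCLRE1C (Artemis) at 0.92 ± 0.18 (adjusted p = 0.000488) and the Ku subunits XRCC6 and XRCC5 at -0.65 ± 0.17 (adjusted p = 0.00376) and -0.63 ± 0.17 (adjusted p = 0.00563).

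Of 5 other mismatch repair genes 2 rose and 2 fell, 80%, beside 48.7% of all genes. PMS1 was among those that rose, with 0.36 ± 0.14 (adjusted p = 0.0361). The PMS1 call was lost without combination 2, combination 3, combination 5, 6-thio-dG 1, 6-thio-dG 2, control 4 or control 5 (adjusted p up to 0.0971). Base excision repair had 1 higher and 5 lower of 16, 37.5%, beside 48.7% of all genes (higher 25.7%, lower 23.1%). The break sensor PARP1 was at -1.16 ± 0.23 (adjusted p = 0.000553), the uracil glycosylase UNG at -0.87 ± 0.18 (adjusted p = 0.000765) and the endonuclease APEX1 at -0.75 ± 0.17 (adjusted p = 0.00151). Nucleotide excision repair, which cuts out bulky lesions, had 3 higher and 5 lower of 15, 53.3%, beside the same 48.7% of all genes. The nuclease ERCC5 had 0.95 ± 0.18 (adjusted p = 0.000478), the damage-binding subunit DDB1 -0.68 ± 0.14 (adjusted p = 0.000742) and RAD23B -0.81 ± 0.19 (adjusted p = 0.00181).

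With 1 drug alone the share of the 92 genes called was below that of all genes. Under osimertinib alone 1 fell, 1.09%, beside 4.16% of all genes, the phosphatase CDC25B, with a log2 fold change of -0.46 ± 0.12 (adjusted p = 0.0342). This call was lost without osimertinib 1, osimertinib 2, osimertinib 4, control 3 or control 5 (adjusted p up to 0.107). The count was 0 without each of these, 2 without combination 5, osimertinib 5 or control 4, 3 without 6-thio-dG 3 and 4 without control 1. Calls over all genes were 217 to 548 without each of these and 761 without combination 5. They were 415 without osimertinib 5, 303 without control 4, 910 without 6-thio-dG 3 and 687 without control 1. Under 6-thio-dG alone 2 rose and 5 fell, 7.61%, beside 13.9% of all genes. RIF1, which shields break ends from resection, had 0.92 ± 0.15 (adjusted p = 0.00103) and its call was made in each of the 19 fits without 1 library (adjusted p up to 0.00566), and ERCC5 had 0.65 ± 0.19 (adjusted p = 0.029). The scaffold XRCC1 fell with -0.46 ± 0.12 (adjusted p = 0.0145), the ATR adaptor CLSPN with -0.85 ± 0.23 (adjusted p = 0.0196), APEX1 with -0.69 ± 0.18 (adjusted p = 0.016), the uracil glycosylase SMUG1 with -0.42 ± 0.12 (adjusted p = 0.028) and the Fanconi ubiquitin-conjugating enzyme UBE2T with -0.45 ± 0.15 (adjusted p = 0.0477). ERCC5 was lost without 6-thio-dG 1, 6-thio-dG 3, control 3 or control 4 (adjusted p up to 0.085). CLSPN was lost without 6-thio-dG 1, 6-thio-dG 3 or control 3 (adjusted p up to 0.0779). APEX1 was lost without 6-thio-dG 3 or control 3 (adjusted p up to 0.0741). SMUG1 was lost without 6-thio-dG 1, 6-thio-dG 3, control 3, control 4 or control 5 (adjusted p up to 0.109). UBE2T was lost without combination 1, combination 2, combination 4, osimertinib 1, osimertinib 2, osimertinib 3, osimertinib 4, 6-thio-dG 1, 6-thio-dG 3, 6-thio-dG 4, control 1, control 3, control 4 or control 5 (adjusted p up to 0.191). The count of these genes was 2 without 6-thio-dG 3 or control 3, 3 without 6-thio-dG 1, 4 without control 4, 11 without combination 5, 12 without control 2 and 16 without 6-thio-dG 2. Calls over all genes were 736 without 6-thio-dG 3, 1232 without control 3, 1390 without 6-thio-dG 1 and 1731 without control 4. They were 2638 without combination 5, 2652 without control 2 and 2807 without 6-thio-dG 2.

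In the combination 6 of the 92 were higher and 13 lower than under osimertinib, 20.7%, beside 15.8% of all genes. RAD9A had 1.21 ± 0.22 (adjusted p = 0.00608), while HUS1, another of the checkpoint genes, was lower, with a log2 fold change of -0.61. That call of HUS1 was lost without osimertinib 3 (adjusted p up to 0.0511). The count of the 92 genes called was 33 without combination 1, 29 without 6-thio-dG 3, 8 without osimertinib 2, 5 without osimertinib 1, 4 without combination 3, 2 without combination 5 and 1 without osimertinib 3. Calls over all genes were 4693, 3098, 1140, 908, 571, 492 and 537 in the same order. Against 6-thio-dG 14 were higher and 22 lower, 39.1%, beside 44.2% of all genes, and 28 and 10 with upper-quartile scaling, when 7496 of all genes were called. RAD9A had 1.52 ± 0.24 (adjusted p = 0.000108), DCLRE1C 0.92 ± 0.19 (adjusted p = 0.000858) and DDB1 -0.74 ± 0.14 (adjusted p = 0.000553) in that comparison. HUS1 was lower there as well, with -0.80, and was called in each of the 19 fits without 1 library (adjusted p up to 0.00311). For the interaction 1 of the 92 was higher and 1 lower, 2.17%, beside 3.45% of all genes. These were RAD9A, 1.19 ± 0.32 (adjusted p = 0.0452), and RIF1, -0.80 ± 0.20 (adjusted p = 0.0396). RIF1 was lost there without combination 2, combination 3, combination 4, combination 5, osimertinib 1, osimertinib 2, osimertinib 3, 6-thio-dG 1, 6-thio-dG 3, control 3, control 4 or control 5 (adjusted p up to 0.0937). RAD9A was lost there without combination 2, combination 3, combination 4, combination 5, osimertinib 1, osimertinib 2, osimertinib 3, 6-thio-dG 1, 6-thio-dG 3, 6-thio-dG 4, control 3, control 4 or control 5 (adjusted p up to 0.0913). The interaction count was 11 without combination 1, 5 without osimertinib 4 or osimertinib 5, 4 without control 2, 1 without 6-thio-dG 4 and 0 without each library named for RIF1. Calls over all genes were 2157 without combination 1, 926 without osimertinib 4, 1100 without osimertinib 5 and 930 without control 2. They were 668 without 6-thio-dG 4 and 0 to 192 without those named for RIF1.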

How the data were processed

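The 19 poly-A RNA-seq libraries of tumour RNA were prepared, per the labels' protocols, by a strand-blind kit, which leaves antisense overlaps unresolved. FastQC, Trimmomatic, STAR and the build hg38 are named by the submitters' processing notes. Which counter and annotation were used, and whether mouse reads were removed, is not given in the sources used here. Labels name the mouse as organism, while the symbols are human. The deposited values are raw counts per gene symbol, and columns not used numbered 0.

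The test was edgeR 4.0.16 (under R 4.3.3) on genes that its filterByExpr kept at a count of 10 and a total of 15, scaled by TMM, in 1 quasi-likelihood fit over all 19 libraries, tested for 5 pairwise contrasts and the interaction, with Benjamini-Hochberg adjustment over 16704 genes and a threshold of 0.05. SE is the log2 fold change divided by the root of F, and 95% intervals use it with a normal quantile. Levels are CPM on TMM-scaled library sizes, with a prior count of 2 on the log2 scale. Low genes such as RAD50 are limited by counting error and by the spread between libraries.

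The 40 members and the other lists were chosen with earlier results of these data known. Named with each library's value are, per comparison, up to 8 called members with the smallest p, plus BRCA1, BRCA2, FANCD2, ATM, ATR, CHEK1, CHEK2 and OGG1 in the combination against control. From each further list come up to 3 called genes with the smallest p. In comparisons other than the combination against control, not all of those are printed. Alternatives were RLE and upper-quartile scaling, DESeq2 1.42.0, limma 3.58.1 voom with quality weights, no filter, a filter of 1 CPM in 4 libraries, the groups of a comparison alone, leaving out libraries, covariates and removal of 13 mitochondrial genes. The fit was tested on simulated data. Figures used Python 3.11.15 and matplotlib 3.10.9. No human annotation was at hand, so positions and sequences are not given. Some genes of the other lists are not reported here by name.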

Additional observations from a re-analysis of the deposited data

Results flagged for a closer look

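Single libraries stood far from the rest of their group in 8 of 160 combinations of gene and group, and chance alone marks about 1 in 20 such groups. Of the 8, 4 were in 6-thio-dG 3: RAD51C had 7.04 CPM, where the other libraries of its group had 11.0 to 11.7 CPM. FANCF had 11.4 CPM, where the other libraries of its group had 15.7 to 15.8 CPM. PMS2 had 36.3 CPM, where the other libraries of its group had 49.4 to 52.0 CPM. MUS81 was high there, with 35.8 CPM, where the other libraries of its group had 28.3 to 29.6 CPM. MSH6 in control 1 had 167 CPM, where the other libraries of its group had 116 to 128 CPM. OGG1 in combination 4 had 8.11 CPM, where the other libraries of its group had 9.36 to 9.85 CPM. OGG1 in osimertinib 2 had 8.56 CPM, where the other libraries of its group had 9.52 to 9.74 CPM. POLQ in combination 2 had 43.4 CPM, where the other libraries of its group had 27.5 to 31.7 CPM.

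NBN was marked because the effect of 6-thio-dG differed with and without osimertinib by the interaction test, at -1.08 ± 0.27 (adjusted p = 0.0396). Its fold change was negative in the combination against osimertinib and positive under 6-thio-dG against control, and neither of these passed the adjusted threshold. 6-thio-dG 3, which has the highest NBN level, and combination 5, which has the lowest, are among the libraries without which the interaction call was lost.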

How the results depend on the processing

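Of 130 recomputed counts of called genes, leave-one-out fits aside, 81 stayed within 1.5 times the reported count. Members called in the combination against control were 12, with 6 without the 3 libraries together, 0 with the mitochondrial covariate, 4 with the proliferation covariate and 9 to 13 without 1 library. Calls over all genes were 8139 as reported, 4660, 542 and 2534 under these alternatives in turn, and 6552 to 8777 without 1 library. Against osimertinib the 4 members called became 8 by DESeq2, 10 by voom, 0 without the 3 libraries or with either covariate, and 0 to 10 without 1 library. Over all genes the 2632 became 3659 by DESeq2, 5327 by voom and 6 without the 3 libraries. With the mitochondrial covariate they were 3, with the proliferation covariate 0, and without 1 library 492 to 4693. Against 6-thio-dG the 14 members called became 4 without the 3 libraries, 0 with the mitochondrial covariate and 10 to 16 without 1 library. The 7378 of all genes became 3311, 191 and 6184 to 8082 in turn. Under osimertinib alone the 1 member called became 3 by voom, 0 with the mitochondrial and 2 with the proliferation covariate, and 0 to 2 without 1 library. The 695 of all genes became 1528, 322, 1056 and 217 to 910 in turn. Under 6-thio-dG alone the 4 members called became 7 by DESeq2, 1 in the groups alone or without the 3 libraries, 2 with the proliferation covariate and 1 to 7 without 1 library. The 2322 of all genes became 3145 by DESeq2, 790 in the groups alone and 910 without the 3 libraries. With the proliferation covariate they were 1271, and without 1 library 736 to 2807. The interaction count of 1 member became 2 with upper-quartile scaling or the proliferation covariate, 5 by DESeq2, 8 by voom, 0 without the 3 libraries or with the mitochondrial covariate, and 0 to 4 without 1 library. The 576 of all genes became 623 with upper-quartile scaling, 1044 with the proliferation covariate, 1757 by DESeq2 and 2802 by voom. They were 0 without the 3 libraries or with the mitochondrial covariate, and 0 to 2157 without 1 library.

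The 46 other repair genes in the combination against control became 26 without the 3 libraries, 1 with the mitochondrial and 10 with the proliferation covariate, and 36 to 47 without 1 library. The all-gene counts given above for each comparison and setting are the background here as well. Against osimertinib the 19 became 38 by voom, 0 without the 3 libraries or with either covariate, and 1 to 33 without 1 library. Against 6-thio-dG the 36 became 17 without the 3 libraries, 0 with the mitochondrial covariate, and 29 to 38 without 1 library. Under osimertinib alone the 1 became 2 with RLE scaling or mitochondrial genes removed, 5 by DESeq2, 6 by voom, 0 with no filter, 4 without the 3 libraries or with the proliferation covariate, and 0 to 4 without 1 library. Calls over all genes were 684 with RLE scaling or mitochondrial genes removed, 1201 by DESeq2, 864 with no filter and 1154 without the 3 libraries. Under 6-thio-dG alone the 7 became 13 with upper-quartile scaling, 14 by DESeq2, 2 in the groups alone, 3 without the 3 libraries, 16 with the mitochondrial and 4 with the proliferation covariate, and 2 to 16 without 1 library. Calls over all genes were 2380 with upper-quartile scaling and 3516 with the mitochondrial covariate. The interaction count of 2 became 8 by DESeq2, 12 by voom, 0 without the 3 libraries or with the mitochondrial covariate, and 0 to 11 without 1 library. It was 3 with upper-quartile scaling and with the proliferation covariate.

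The sign turned for BRCA1 (0.00666) in the combination against control with the proliferation covariate, in a fit that separates that level poorly from treatment. With the mitochondrial covariate it turned for NBN against control (0.00516) and CHEK1 against 6-thio-dG (0.16), all log2 fold changes. The mitochondrial share did not overlap between the groups of those comparisons, so these fits cannot separate it from treatment. The cause was not tested. Without a filter the median log2 fold change of all genes was 0.27 in the combination against control, 0.11 against osimertinib, 0.12 against 6-thio-dG and -0.10 for the interaction. No paired analysis was possible because the labels give the groups no shared replicate numbers. Low counts limit RAD50, RAD54B and FANCE, and RAD50 also spread widely between libraries of control and osimertinib.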
